A study of Mus musculus with 20 samples.

Results

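Thyroid hormone acts in a cell only after it has been carried in plasma, taken up, activated or broken down, and bound by a nuclear receptor. The genes described here are 7 parts of that route: the receptors Thra and Thrb, their partner Rxra, the corepressor Ncor1, the deiodinase Dio1 and the plasma carriers Serpina7 and Ttr. They were found by gene symbol among the 13319 symbols listed in every library. All 7 were listed, and all 7 passed the filter on low counts that left 12907 genes for testing. Liver RNA was sequenced from individual male mice that ate a western diet and were treated daily for 16 days, and each of 5 groups had 4 mice. These were given a hybrid (glucagon and T3 joined in a single molecule), a combination (glucagon and T3 given together), T3 alone (triiodothyronine, the active thyroid hormone), glucagon alone (the pancreatic hormone that raises glucose release from the liver) or were controls. The labels code the hybrid libraries as Cp, and these were taken as the hybrid because the other 4 treatments are spelled out. Western diet, sex and length of treatment were shared by all groups, and the sources used here do not state doses, strain, age or the hour at which tissue was taken.

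In textbook accounts, T3 enters hepatocytes through membrane carriers and binds receptors that sit on DNA as partners of a retinoid X receptor. Without hormone the receptor holds a corepressor complex at its target genes, and with hormone it exchanges that complex for coactivators. Thrb is the main receptor of hepatocytes, Thra the main receptor of heart, bone and skeletal muscle, and Dio1 is a classical T3 target that removes iodine from thyroid hormones in the liver. Serpina7 (thyroxine-binding globulin) and Ttr (transthyretin) are made by hepatocytes and carry the hormone in blood.

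The sequences before the start sites of 3 of these genes are shown because Dio1 and Serpina7 had the highest and the lowest changes of the 7 genes and Thrb is the receptor whose level differed most between hybrid and control livers. They come from RefSeq on GRCm38.p6, are written 5′ to 3′ on the gene's own strand, and leave out bases that GENCODE M21 places in an exon. Capitals mark the half-site of thyroid hormone receptors, the TATA box or the half-site of HNF1, whose letters are spelled out after the sequences. The Thrb stretch lies inside the gene as GENCODE M21 places it (chr14:17660261-18038090), before a RefSeq start downstream of the GENCODE start.
Dio1, chr4:107307170-107307418, minus strand: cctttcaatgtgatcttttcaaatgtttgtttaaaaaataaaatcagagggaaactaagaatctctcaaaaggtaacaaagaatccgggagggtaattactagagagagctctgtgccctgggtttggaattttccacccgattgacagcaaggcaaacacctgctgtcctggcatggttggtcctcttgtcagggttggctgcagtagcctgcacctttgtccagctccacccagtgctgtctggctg
Serpina7, chrX:139085237-139085486, minus strand: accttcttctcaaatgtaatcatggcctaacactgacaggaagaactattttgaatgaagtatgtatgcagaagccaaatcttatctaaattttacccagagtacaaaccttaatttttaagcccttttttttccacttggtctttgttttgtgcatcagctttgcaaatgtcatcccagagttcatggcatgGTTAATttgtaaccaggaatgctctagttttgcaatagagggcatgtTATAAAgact
Thrb, chr14:17660710-17660891, plus strand: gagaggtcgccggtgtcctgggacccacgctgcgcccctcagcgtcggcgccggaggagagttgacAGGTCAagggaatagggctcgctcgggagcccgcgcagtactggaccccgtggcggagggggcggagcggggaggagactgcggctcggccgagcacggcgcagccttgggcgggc

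Windows of 300 bases, 250 before and 50 after a RefSeq start, were searched on both strands for 5 of the 7 genes: Dio1, Serpina7, Thrb, Rxra and Ncor1. The receptor half-site was searched as AGGTCA. Its direct repeat, which contains the half-site itself, was searched as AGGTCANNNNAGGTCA. The TATA box was searched as TATAAA. For HNF1, a factor of hepatocyte genes, the letters were GTTAAT. The cAMP response element was searched as TGACGTCA. In Serpina7, the TATA box lay 10 bases and the HNF1 half-site 57 bases before the upstream one of its RefSeq starts. From its other RefSeq start the distances were 27 and 74 bases. The Thrb window from which the stretch above comes held the receptor half-site 184 bases before its start. It also held an HNF1 half-site on the opposite strand 44 bases before that start, inside an annotated exon and so not printed. The window of another Thrb start held a TATA box 167 bases before it and no receptor half-site. A window of Rxra held the receptor half-site 48 bases before its start and, on the opposite strand, 87 bases before it. Another Rxra window held none. The half-site stood in 16.2% of all 32544 windows of the table, the TATA box in 13.6%, the HNF1 half-site in 7.13%, the cAMP response element in 1.80% and the direct repeat in 0.0154%. None of the 5 motifs was found in the Dio1 window. A match is a description of letters and not of binding.

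Library totals ran from 6091917 to 23195658 counts, and the T3 libraries were the shallowest, with 6091917 to 7996156. All 8 hepatocyte markers were detected in every library, and albumin (Alb) was at 61480 CPM (counts scaled to library size) or more. The sum of the 8, of which Alb was the largest part, was 81000 to 114000 CPM in hybrid and 98520 to 147500 CPM in combination libraries. It was 87850 to 129100 CPM in T3, 168100 to 233900 CPM in glucagon and 138800 to 279500 CPM in control libraries. The labels put all T3 libraries in sequencing lane 5 and replicates 1 to 4 of the other groups in lanes 1 to 4, so in any comparison with the T3 group an effect of treatment and one of lane cannot be told apart. Control 2 and glucagon 3 stood apart in 12 skeletal muscle genes, which summed to 926 CPM in control 2 and 3570 CPM in glucagon 3. The highest muscle sums of the other groups were 594 CPM in hybrid, 343 CPM in combination and 59.1 CPM in T3. Control 2 also had the highest interferon response sum of the controls, 1846 CPM against a lowest of 116 CPM. The 10 listed macrophage and Kupffer cell markers summed to 615 to 865 CPM in hybrid, 602 to 726 CPM in combination, 809 to 991 CPM in T3, 248 to 300 CPM in glucagon and 350 to 656 CPM in control libraries. None of these markers was at 0 throughout a group, and their part in the results was not tested.

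Calls rest on edgeR's quasi-likelihood test, with p adjusted by Benjamini-Hochberg over 12907 genes and a threshold of 0.05. Changes are log2 ± SE, and levels are CPM after TMM normalisation, listed for libraries 1 to 4. In hybrid livers 1 of the 7 genes rose and 4 fell against control, where 11.2% of all genes rose and 13.2% fell. With the combination 1 rose and 4 fell, against 9.23% and 10.9% of all genes. In T3 livers 1 rose and 3 fell, against 7.31% and 10.6% of all genes. With glucagon 0 rose and 2 fell, against 9.23% and 11.9% of all genes. The riser was Dio1 in all 3 comparisons that had one. All 4 comparisons use the same control mice, so they are not independent, and p-values measure the spread between these mice and libraries.

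**Figure D1:**
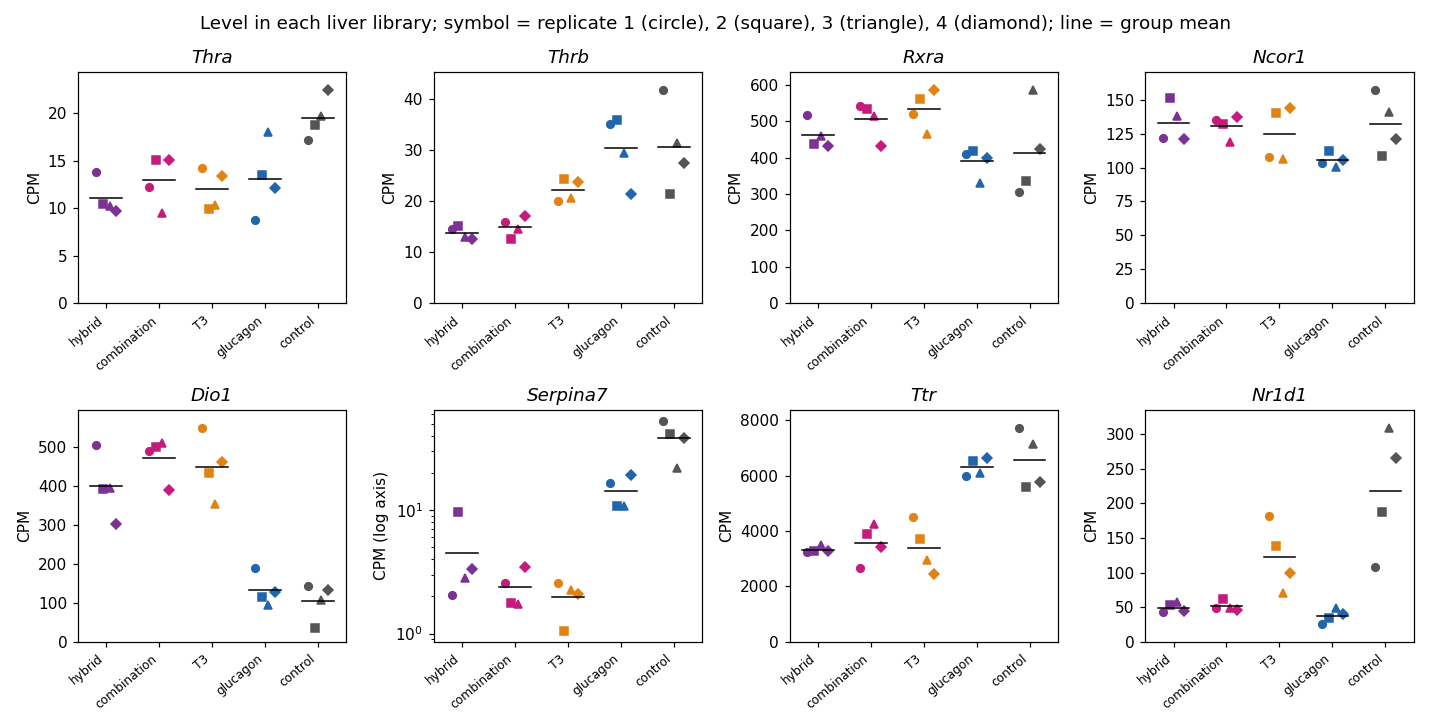
Level of each gene in CPM (vertical axes, Serpina7 on a log axis) in every liver library, with the 5 groups along the horizontal axes, symbols for the replicate number and a line at the group mean. Dio1 is between 301 and 549 CPM in the hybrid, combination and T3 libraries and at most 189 CPM in the glucagon and control libraries. Nr1d1 is drawn because it overlaps Thra on the opposite strand.

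Dio1 rose wherever T3 was given, alone, together with glucagon or as the hybrid. It lies at chr4:107291465-107307169 on the minus strand (GENCODE M21, GRCm38), and its start is the first sequence printed above. Dio1 was at 506, 393, 394 and 301 CPM in hybrid livers, against 142, 35.2, 108 and 133 CPM in control livers. The combination libraries held 489, 500, 511 and 390 CPM. In T3 livers the values were 549, 433, 352 and 461 CPM, and in glucagon livers 189, 115, 95.1 and 127 CPM. No library of the hybrid, combination or T3 groups overlapped any glucagon or control library, while glucagon and control overlapped. The change against control was 1.93 ± 0.31 with the hybrid (adjusted p = 0.000157), 2.18 ± 0.31 with the combination (adjusted p = 6.69e-05) and 2.10 ± 0.31 with T3 (adjusted p = 0.000158). These are 3.81-fold, 4.52-fold and 4.29-fold. Glucagon alone gave 0.33 ± 0.30 (adjusted p = 0.468), with a 95% interval of -0.30 to 0.96.

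Control 2 was the lowest Dio1 library, and it is also the control that stood apart in muscle and interferon genes. Without control 2 the changes were 1.65 with the hybrid, 1.89 with the combination and 1.82 with T3, all still called. Within lanes, where each treated library was set against the control of its own lane, Dio1 was higher in 4 of 4 lanes with the hybrid, by log2 1.17 to 3.48. With the combination it was higher in 4 of 4 lanes, by 1.55 to 3.83, and with glucagon in 2 of 4, from -0.18 to 1.70. For this and the other genes, where 2 groups do not overlap all 4 lanes must share a sign. A count of 4 of 4 lanes is then no further evidence, and only the sizes are informative.

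Serpina7, the gene of thyroxine-binding globulin, fell with every treatment, and it was lower with the hybrid and with the combination than with glucagon alone. It lies at chrX:139079257-139085236 on the minus strand. Its level was 2.07, 9.69, 2.80 and 3.36 CPM in hybrid livers, against 52.9, 41.2, 21.9 and 38.1 CPM in control livers. Combination livers had 2.55, 1.75, 1.73 and 3.43 CPM, and T3 livers 2.58, 1.05, 2.24 and 2.08 CPM. Glucagon livers had 16.5, 10.8, 10.7 and 19.2 CPM. The control libraries did not overlap any treated library, and hybrid 2 lay close under the lowest glucagon libraries. Counts of Serpina7 ran from 8 reads in a T3 library to 989 in a control library, and 8 was the lowest count of any of the 7 genes.

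The fall of Serpina7 against control was -3.08 ± 0.40 with the hybrid (adjusted p = 1.75e-05), -4.03 ± 0.43 with the combination (adjusted p = 2.78e-06) and -4.27 ± 0.45 with T3 (adjusted p = 4.4e-06). Expressed as folds, it was 8.48-fold lower with the hybrid, 16.3-fold lower with the combination and 19.3-fold lower with T3. With glucagon it fell by 1.43 ± 0.38 on the log2 scale (adjusted p = 0.00961), and it was lower in 4 of 4 lanes, by -1.93 to -0.99. Within lanes the hybrid differed from control by -4.68 to -2.09 and the combination by -4.55 to -3.47. Leaving out hybrid 2 moved the hybrid's change to -3.82. Hybrid 2 had the highest cholangiocyte sum of its group (77.2 CPM, against a lowest of 34.1 CPM) and the highest stellate cell and fibroblast sum (562 CPM, against a lowest of 399 CPM), and their part in its level was not tested.

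Ttr, the gene of transthyretin, fell with the hybrid, the combination and T3, to means of 3321, 3549 and 3390 CPM, and did not pass the test with glucagon. It lies at chr18:20665280-20674321 on the plus strand. Ttr was at 3252, 3279, 3480 and 3275 CPM in hybrid livers, against 7719, 5602, 7123 and 5781 CPM in control livers. The combination livers had 2650, 3888, 4234 and 3422 CPM. T3 livers had 4497, 3690, 2943 and 2430 CPM, and glucagon livers 5977, 6539, 6099 and 6646 CPM. Every library given T3 in any form was below every glucagon and control library.

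The change of Ttr against control was -0.98 ± 0.19 with the hybrid (adjusted p = 0.000871), -0.89 ± 0.19 with the combination (adjusted p = 0.00256) and -0.95 ± 0.19 with T3 (adjusted p = 0.00222). Glucagon gave -0.05 ± 0.19 (adjusted p = 0.867), with a 95% interval of -0.45 to 0.34. Within lanes Ttr was lower in 4 of 4 with the hybrid, by -1.25 to -0.77, and in 4 of 4 with the combination, by -1.54 to -0.53. When the compared groups were fitted alone, the adjusted p became 0.0581 for the combination and 0.0815 for T3. Alb, another abundant secreted product of hepatocytes, averaged 79850 ± 16650 CPM in hybrid, 104900 ± 23170 CPM in combination, 87980 ± 18200 CPM in T3, 167800 ± 28430 CPM in glucagon and 152100 ± 52190 CPM in control livers (SD, n = 4 each). In bulk liver, fewer cells of a type and less RNA per cell cannot be told apart.

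Thrb, the main receptor of hepatocytes, fell when glucagon and T3 were given together or as the hybrid, and did not pass the test with either hormone alone. It lies at chr14:17660261-18038090 on the plus strand. Thrb was at 14.6, 15.2, 12.99 and 12.5 CPM in hybrid livers, against 41.8, 21.5, 31.5 and 27.5 CPM in control livers. Combination livers had 16.0, 12.5, 14.5 and 17.1 CPM. T3 livers had 19.99, 24.2, 20.5 and 23.8 CPM, and glucagon livers 35.0, 36.0, 29.4 and 21.3 CPM. All hybrid and combination libraries were below all libraries of the other 3 groups, and the T3 libraries overlapped both glucagon and control.

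For Thrb the hybrid differed from control by -1.14 ± 0.19 (adjusted p = 0.000201) and the combination by -1.02 ± 0.19 (adjusted p = 0.000719), 2.20-fold and 2.03-fold lower. T3 gave -0.47 ± 0.19 (adjusted p = 0.0908), with a 95% interval of -0.86 to -0.07. Without control 2, the lowest control, T3 gave -0.60 (adjusted p = 0.0273), so whether T3 passes the test turns on 1 library. Glucagon gave -0.0045 ± 0.18 (adjusted p = 0.989), with a 95% interval of -0.39 to 0.38. Within lanes Thrb was lower in 4 of 4 with the hybrid, by -1.52 to -0.50, and in 4 of 4 with the combination, by -1.39 to -0.69.

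Thra was lower than in control with every treatment, but 3 of its 4 calls lay close to the threshold. It lies at chr11:98740638-98769006 on the plus strand. Thra was at 13.8, 10.5, 10.2 and 9.71 CPM in hybrid livers, against 17.2, 18.7, 19.7 and 22.5 CPM in control livers. Combination livers had 12.3, 15.1, 9.45 and 15.03 CPM. T3 livers had 14.2, 9.96, 10.4 and 13.4 CPM, and glucagon livers 8.71, 13.5, 18.0 and 12.1 CPM. The control libraries did not overlap those of hybrid, combination or T3, while glucagon 3 lay among the controls. Glucagon 3 is the library with the highest sum of skeletal muscle genes, and the part of that in its Thra level was not tested.

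The change of Thra against control was -0.82 ± 0.20 with the hybrid (adjusted p = 0.00626), -0.59 ± 0.20 with the combination (adjusted p = 0.0455), -0.70 ± 0.21 with T3 (adjusted p = 0.0245) and -0.58 ± 0.20 with glucagon (adjusted p = 0.0489). With the replicate number as a block over the 4 shared lanes, the combination had an adjusted p of 0.0873 and glucagon one of 0.0925. Of 17 alternatives the combination's call was kept in 6 and glucagon's in 6, and T3's was kept in 10 of 15. The hybrid's call was kept in 16 of 17 and ended, with an adjusted p of 0.0637, when libraries were scaled by their totals alone. Within lanes Thra was lower in 4 of 4 with the hybrid, by -1.21 to -0.32, and with the combination, by -1.06 to -0.31. Both follow from the lack of overlap with control and add no support to the calls. With glucagon, which overlapped control, Thra was lower in 4 of 4, by -0.98 to -0.13. Only glucagon 3 reached the range of the controls, so only the sign of lane 3 was open. This count therefore adds little to the call as well.

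Thra shares 263 exon bases with Nr1d1 (Rev-erb alpha, a repressor of the circadian clock), which runs on the opposite strand at chr11:98767932-98775333. They are 5.70% of the Thra exon bases and 8.55% of those of Nr1d1. The sources used here do not state whether the counting used strand, so reads from the shared bases cannot be told apart. Nr1d1 averaged 49.3 ± 6.84 CPM in hybrid, 51.2 ± 7.43 CPM in combination, 123 ± 48.4 CPM in T3, 37.1 ± 9.81 CPM in glucagon and 218 ± 88.4 CPM in control livers (SD, n = 4 each). It fell, with changes of -2.14 ± 0.30 with the hybrid (adjusted p = 3.36e-05), -2.09 ± 0.30 with the combination and -2.55 ± 0.30 with glucagon, and T3 gave -0.83 ± 0.29 (adjusted p = 0.0511). Both genes were highest in control livers, and the part of Nr1d1 reads in the Thra counts was not tested.

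Rxra, the retinoid X receptor that pairs with both thyroid hormone receptors, passed the test in no comparison. It lies at chr2:27676440-27762957 on the plus strand. Rxra averaged 462 ± 39.1 CPM in hybrid, 505 ± 50.6 CPM in combination, 533 ± 53.7 CPM in T3, 390 ± 40.04 CPM in glucagon and 412 ± 125 CPM in control livers (SD, n = 4 each). The control libraries had the widest spread. Changes against control were 0.16 ± 0.17 with the hybrid (adjusted p = 0.532), 0.29 ± 0.17 with the combination (adjusted p = 0.243), 0.37 ± 0.17 with T3 (adjusted p = 0.143) and -0.08 ± 0.17 with glucagon (adjusted p = 0.779). Without control 3, the highest control, the combination gave 0.50 (adjusted p = 0.0204) and T3 0.58 (adjusted p = 0.0101).

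Ncor1, the corepressor that unliganded receptors hold at target genes, also passed the test in no comparison. It lies at chr11:62316426-62458541 on the minus strand. Ncor1 averaged 133 ± 14.4 CPM in hybrid, 131 ± 8.03 CPM in combination, 124 ± 20.1 CPM in T3, 105 ± 5.14 CPM in glucagon and 132 ± 21.4 CPM in control livers (SD, n = 4 each). Changes against control were 0.01 ± 0.14 with the hybrid, -0.01 ± 0.14 with the combination, -0.08 ± 0.14 with T3 and -0.32 ± 0.14 with glucagon, with adjusted p-values of 0.968, 0.9605, 0.710 and 0.104. The 95% interval for the hybrid was -0.28 to 0.30 and for the combination -0.30 to 0.28.

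**Figure D2:**
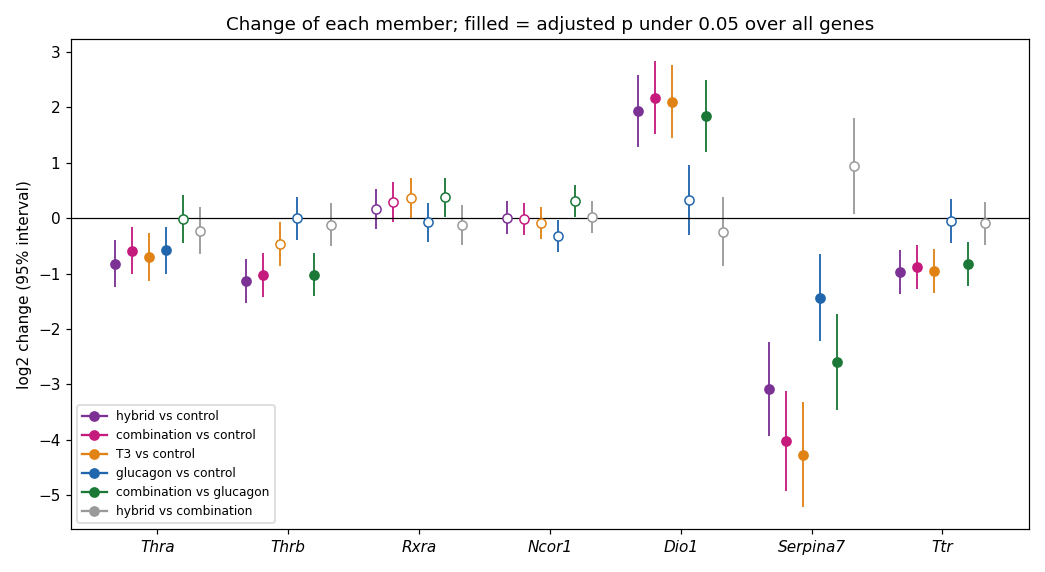
Fitted log2 change of each gene (vertical axis, with 95% interval) in 6 comparisons, where a filled point passed the test over all genes. Serpina7 lies between -4.27 and -3.08 with the hybrid, combination and T3 against control and at -1.43 with glucagon, and Rxra and Ncor1 have no filled point.

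Setting the combination against glucagon asks what T3 added when glucagon was present. Of the 7 genes 1 rose and 3 fell, where 12.4% of all genes rose and 10.2% fell. Dio1 rose by 1.85 ± 0.31 (adjusted p = 0.000227), Serpina7 fell by 2.59 ± 0.42 (adjusted p = 0.000137), Thrb fell by 1.02 ± 0.19 (adjusted p = 0.000557) and Ttr fell by 0.83 ± 0.19 (adjusted p = 0.00317). Each of the 4 moved the same way in 4 of 4 lanes, Dio1 by 1.37 to 2.43, Serpina7 by -2.69 to -2.49, Thrb by -1.52 to -0.32 and Ttr by -1.17 to -0.53. Serpina7 had the tightest range over the lanes of the 4 but also the largest SE. Its combination libraries held only 43, 22, 21 and 37 reads, so the tight range is no sign of precision. Thra did not pass the test, at -0.01 ± 0.20 (adjusted p = 0.972), and was higher in 3 of 4 lanes.

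Rxra and Ncor1 were above glucagon in 4 of 4 lanes of the combination, Rxra by 0.11 to 0.63 and Ncor1 by 0.23 to 0.39, and their groups did not overlap. The fitted differences were 0.37 ± 0.17 for Rxra (adjusted p = 0.133) and 0.31 ± 0.14 for Ncor1 (adjusted p = 0.119). The exact permutation test gave p = 0.0286 for each, the smallest that 4 libraries against 4 allow. That p and the shared sign of the lanes both follow from the lack of overlap, so they are the same observation. In this comparison 4379 of all 12907 genes had an unadjusted p under 0.05 in the edgeR test. How many of all genes did not overlap was not counted. Both were called when libraries were scaled by their totals alone, and both were called when the compared groups were fitted alone, with adjusted p-values of 0.0336 for Rxra and 0.027 for Ncor1.

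The hybrid against glucagon called the same 4 genes as the combination against glucagon, with 1 higher and 3 lower, where 13.6% of all genes rose and 11.7% fell. Dio1 rose by 1.60 ± 0.31 (adjusted p = 0.000732), Serpina7 fell by 1.65 ± 0.39 (adjusted p = 0.00405), Thrb fell by 1.14 ± 0.19 (adjusted p = 0.000192) and Ttr fell by 0.93 ± 0.19 (adjusted p = 0.00125). Both comparisons use the same glucagon mice. Within lanes Dio1 was higher by 1.25 to 2.05, Serpina7 lower by -2.99 to -0.16, Thrb lower by -1.26 to -0.77 and Ttr lower by -1.02 to -0.81, each in 4 of 4. Without hybrid 2 the Serpina7 change was -2.39. Rxra and Ncor1 did not overlap glucagon here either, with within-lane differences of 0.06 to 0.47 and 0.20 to 0.45. Neither was called, at 0.24 ± 0.17 for Rxra (adjusted p = 0.336) and 0.33 ± 0.14 for Ncor1 (adjusted p = 0.0854). In this comparison 4681 of all 12907 genes had an unadjusted edgeR p under 0.05, and genes without overlap were not counted.

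**Figure D3:**
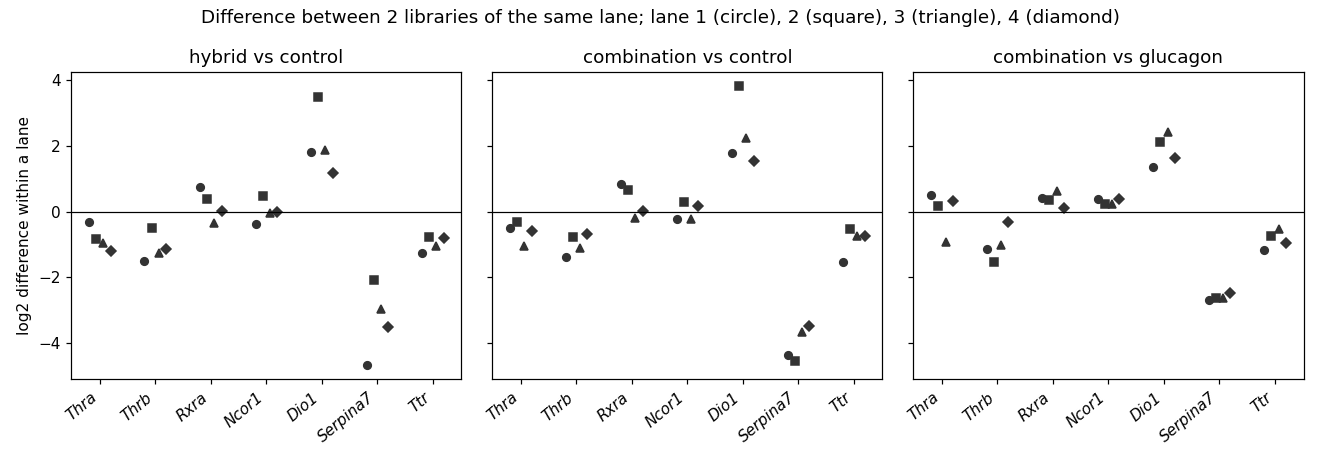
Log2 difference between 2 libraries of the same sequencing lane (vertical axis) for each gene, in 3 comparisons with a symbol per lane. Dio1 is above 0 and Serpina7, Thrb and Ttr are below 0 in 4 of 4 lanes of each panel, and Rxra and Ncor1 are above 0 in 4 of 4 lanes in the comparison of combination with glucagon.

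The hybrid was set against the combination to ask whether one molecule differed from its parts given together. None of the 7 genes was called, and of all 12907 genes 0.031% were, 4 genes, with 891 at an unadjusted p under 0.05 and 28 called by DESeq2. The intervals show what sizes the data leave possible. For Dio1 the difference was -0.25, with a 95% interval of -0.87 to 0.38, and for Thrb it was -0.12, with one of -0.51 to 0.28. For Ttr it was -0.10, with one of -0.49 to 0.30, and for Thra -0.23, with one of -0.66 to 0.20. For Rxra it was -0.13, with one of -0.49 to 0.23, and for Ncor1 0.02, with one of -0.27 to 0.31. Serpina7 was at 0.94 ± 0.42, with a 95% interval of 0.07 to 1.81 (unadjusted p = 0.0349, adjusted p = 0.711), it was higher in the hybrid library in 2 of 4 lanes, and without hybrid 2 the difference was 0.21. A p that misses the threshold does not show that the treatments act alike.

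Against T3 alone, the combination changed 0 of the 7 genes and the hybrid 1, Thrb, where 1.39% and 6.36% of all genes were called. Thrb differed from T3 by -0.67 ± 0.19 with the hybrid (adjusted p = 0.0392) and by -0.56 ± 0.19 with the combination (adjusted p = 0.187). In both comparisons the groups did not overlap, with an exact permutation p of 0.0286, the smallest that 4 libraries against 4 allow. That p follows from the lack of overlap and is no separate evidence. Of all 12907 genes, 2857 with the hybrid and 1606 with the combination had an unadjusted edgeR p under 0.05 against T3. The number of all genes without overlap was not counted. The hybrid's call ended whenever any 1 of the 8 libraries was left out, with adjusted p-values of 0.0565 to 0.113. Serpina7 was 1.19 ± 0.45 higher with the hybrid than with T3 (adjusted p = 0.121), and without hybrid 2 the Serpina7 difference was 0.44.

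An interaction term asked whether the combination differed from glucagon and T3 effects added up, and it was called for 0 of the 7 genes, against 3.73% of all genes. It was 1.68 ± 0.60 for Serpina7 (adjusted p = 0.145), a smaller fall than the sum, -0.55 ± 0.27 for Thrb (adjusted p = 0.297) and 0.69 ± 0.29 for Thra (adjusted p = 0.228). This term contains the T3 group and with it the lane.

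The Thrb to Thra ratio of counts within a library needs no scaling between libraries, and it was added after the data were seen. It averaged 1.27 ± 0.161 in hybrid, 1.202 ± 0.298 in combination, 1.90 ± 0.429 in T3, 2.52 ± 1.10 in glucagon and 1.60 ± 0.587 in control livers (SD, n = 4 each). Thrb has 7403 exon bases and Thra 4614, so a count ratio above 1 does not show that Thrb was the higher gene. Per kilobase of exon the mean ratio was 0.792 in hybrid, 0.7495 in combination, 1.18 in T3, 1.57 in glucagon and 0.997 in control livers. Differences between groups in the log2 ratio do not depend on exon length. The log2 ratio differed by -1.01 between combination and glucagon livers and by -0.90 between hybrid and glucagon livers. In both the groups did not overlap (exact permutation p = 0.0286, and 0.129 after adjustment over 9 comparisons). Neither the hybrid nor the combination separated from control, with exact permutation p-values of 0.400 and 0.314. The part of the bases shared with Nr1d1 in this ratio was not tested.

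Per kilobase of exon in GENCODE M21, Ttr stood far above the other members in control livers, with a level of 5528 ± 869 CPM per kb (SD, n = 4). Rxra followed at 75.5 ± 22.9 and Dio1 at 53.1 ± 24.7 CPM per kb. Serpina7 was at 15.7 ± 5.23, Ncor1 at 10.3 ± 1.67, Thra at 4.23 ± 0.479 and Thrb at 4.13 ± 1.16 CPM per kb. Rxra and Dio1 differed by less than the sum of their SDs, as did Serpina7 and Ncor1, and Thra and Thrb. In hybrid livers Dio1 was at 202 ± 42.6 CPM per kb and Serpina7 at 1.83 ± 1.44 CPM per kb, beside Rxra at 84.5 ± 7.15 and Thrb at 1.87 ± 0.175 CPM per kb.

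The genes whose level followed a member most closely over the 20 libraries were found by Pearson's r of log2 CPM among 5314 genes. This is a description, since the libraries share groups, depth and mice. Dio1 was followed by Gstt1 (a glutathione transferase, r = 0.968), Sult5a1 (a sulfotransferase, r = 0.944) and Acot11 (an acyl-CoA thioesterase, r = 0.943). Serpina7 was followed by Gstm6 (r = 0.914), Gclc (the catalytic subunit that starts glutathione synthesis, r = 0.895) and Dstn (r = 0.890). Ttr was followed by Hsd17b6 (r = 0.935), Srr (r = 0.931) and Gclc (r = 0.930). For Thrb the top 3 were Atp8b1 (r = 0.923), Aox3 (r = 0.917) and Phf17 (r = 0.907), and for Thra they were Entpd5 (r = 0.761), Siae (r = 0.758) and Tprgl (r = 0.755). Gclc averaged 210 CPM in hybrid, 220 CPM in combination, 182 CPM in T3, 463 CPM in glucagon and 712 CPM in control livers.

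Around these 7 genes, the membrane carriers of thyroid hormone moved in both directions. Of 11 tested carriers 3 rose and 4 fell with the hybrid, 2 and 2 with the combination, 2 and 2 with T3, and 4 and 1 with glucagon. For this and the following lists, 11.2% of all genes rose and 13.2% fell with the hybrid, and 9.23% and 10.9% with the combination. The shares were 7.31% and 10.6% with T3, and 9.23% and 11.9% with glucagon. Several lists lie near these shares, and no list was tested as a set. Slco1b2, an organic anion carrier of hepatocytes, fell, with changes of -1.97 ± 0.37 with the hybrid (adjusted p = 0.000594), -1.74 ± 0.36 with the combination (adjusted p = 0.0021) and -1.56 ± 0.36 with T3 (adjusted p = 0.00649). Control 1 was the highest control for Slco1b2, and without it the change was -1.22 with the hybrid, -0.9955 with the combination and -0.81 with T3, all still called. Slc7a5, which carries large neutral amino acids together with Slc3a2, rose by 1.64 ± 0.29 with the hybrid, by 1.34 ± 0.28 with the combination and by 1.21 ± 0.29 with T3. It rose with glucagon as well, by 0.94 ± 0.28 (adjusted p = 0.0239). Slc16a10, an aromatic amino acid and thyroid hormone carrier, rose by 1.53 ± 0.17 with the hybrid, by 1.58 ± 0.17 with the combination and by 1.70 ± 0.17 with glucagon. With T3 it rose by 0.50 ± 0.17 (adjusted p = 0.0439), a call that ended without control 2, control 3 or any one T3 library. The median change of the list against control was -0.82 with the hybrid and -0.50 with the combination, where all genes had medians of -0.05 and -0.07.

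**Figure D4:**
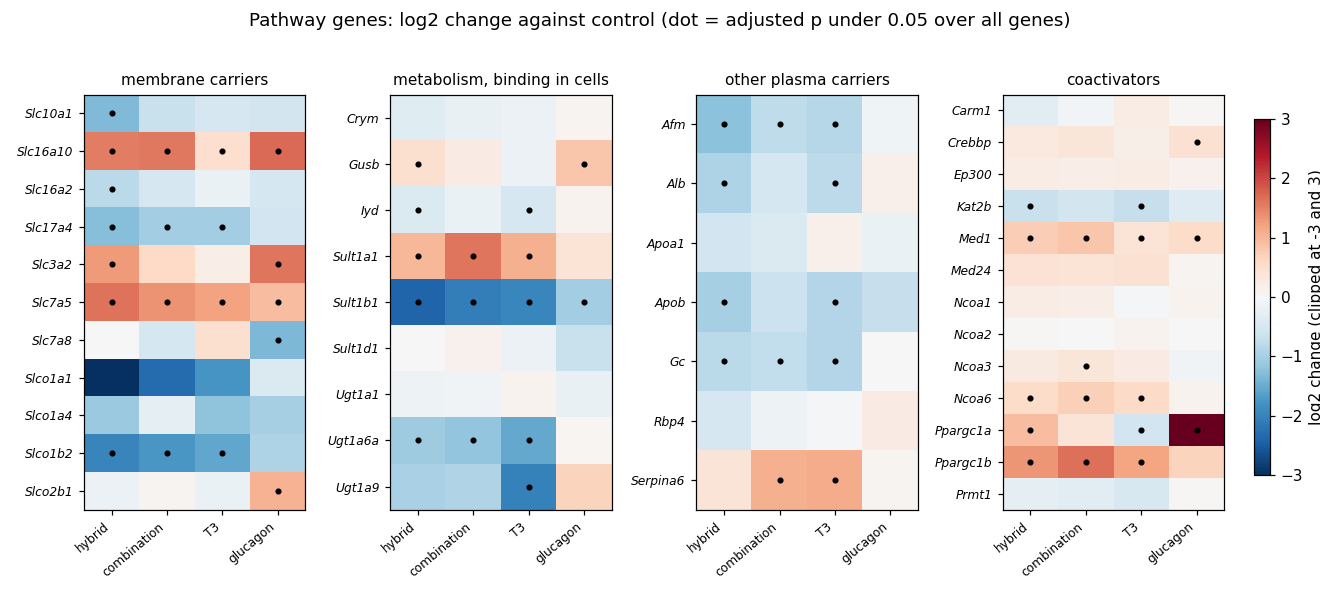
Log2 change against control (colour, clipped at -3 and 3) of the tested genes of 4 lists, one row per gene and one column per treatment, with a dot where the adjusted p was under 0.05. Sult1b1, Slc7a5, Slc16a10 and Med1 carry a dot in all 4 columns.

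Among 9 tested genes of hormone metabolism and binding in cells, 2 rose and 3 fell with the hybrid, 1 and 2 with the combination, 1 and 4 with T3, and 1 and 1 with glucagon. Sult1b1, which can sulfate thyroid hormones, fell, with changes of -2.40 ± 0.34 with the hybrid (adjusted p = 3.86e-05), -2.09 ± 0.33 with the combination, -1.97 ± 0.34 with T3 and -1.04 ± 0.32 with glucagon, where the call ended without control 1, glucagon 2 or glucagon 4. Sult1a1 rose by 0.99 ± 0.22 with the hybrid, by 1.60 ± 0.22 with the combination and by 1.06 ± 0.22 with T3, and with glucagon it was at 0.42 ± 0.22 (adjusted p = 0.185). Sult1d1, a related sulfotransferase, passed the test in none of the 4 comparisons with control. Ugt1a6a fell with the hybrid and with the combination, with changes of -1.07 ± 0.20 and -1.19 ± 0.20. With T3 the change of Ugt1a6a was -1.53 ± 0.21 (adjusted p = 8.79e-05), but the Ugt1a genes share exons, so their counts are uncertain. With the hybrid the median change of the list was -0.36. Of 8 tested genes of selenoprotein synthesis, which Dio1 needs for its selenocysteine, 0 rose and 3 fell with the hybrid, 1 fell with the combination, 2 fell with T3 and 0 changed with glucagon. Pstk, the kinase that acts on the serine of that transfer RNA, fell by 0.82 ± 0.23 with the hybrid (adjusted p = 0.0124), and that call ended without control 1. The median of the list with the hybrid was -0.39.

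Of 7 other plasma carrier proteins, 0 rose and 4 fell with the hybrid, 1 rose and 2 fell with the combination, 1 rose and 4 fell with T3, and 0 changed with glucagon. Their median change was -0.82 with the hybrid and 0.02 with glucagon, where all genes had medians of -0.05 and -0.09. Gc, the vitamin D carrier, fell, with changes of -0.74 ± 0.18 with the combination (adjusted p = 0.0073) and -0.87 ± 0.18 with T3 (adjusted p = 0.00321). With the hybrid the change of Gc was -0.82 ± 0.18 (adjusted p = 0.00278). Afm (afamin) fell by 1.24 ± 0.21 with the hybrid (adjusted p = 0.000223). Its change was -0.76 ± 0.205 with the combination (adjusted p = 0.0128) and -0.85 ± 0.21 with T3 (adjusted p = 0.00864). Serpina6, the corticosteroid carrier and a relative of Serpina7, rose by 1.08 ± 0.25 with the combination and by 1.12 ± 0.25 with T3.

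Tbl1x, a subunit that bridges the corepressor complex to chromatin, fell, with changes of -1.07 ± 0.24 with the combination (adjusted p = 0.00428) and -1.09 ± 0.25 with T3 (adjusted p = 0.0057). It was not called with the hybrid, at -0.61 ± 0.24 (adjusted p = 0.0724), or with glucagon, at -0.29 ± 0.24 (adjusted p = 0.411). This is 1 gene and does not describe the complex.

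Of 13 coactivator genes, 4 rose and 1 fell with the hybrid, 4 rose and 0 fell with the combination, 3 rose and 2 fell with T3, and 3 rose and 0 fell with glucagon. Their median change was 0.26 with the hybrid and 0.36 with the combination. Ppargc1a, a coactivator of mitochondrial and gluconeogenic genes, rose by 4.04 ± 0.20 with glucagon (adjusted p = 4.36e-11) and by 0.92 ± 0.18 with the hybrid. With T3 Ppargc1a fell by 0.58 ± 0.19 (adjusted p = 0.0429), a call that ended without control 1, control 2, T3 2 or T3 3, and the combination gave 0.39 ± 0.18 (adjusted p = 0.143). It was lower by -3.65 ± 0.20 in the combination than in glucagon livers (adjusted p = 1.58e-10). Its paralog Ppargc1b rose by 1.32 ± 0.28 with the hybrid, by 1.65 ± 0.28 with the combination and by 1.18 ± 0.28 with T3. Med1, the Mediator subunit that binds nuclear receptors, rose by 0.83 ± 0.11 with the combination and by 0.55 ± 0.11 with glucagon. Among 12 other RXR partners and RXRs, 0 rose and 1 fell with the hybrid, 1 and 1 with the combination, 2 and 0 with T3, and 1 and 3 with glucagon, with a median of 0.09 for the hybrid. Nr1h4, the bile acid receptor, fell by 1.77 ± 0.29 with glucagon and was 1.42 ± 0.29 higher with the combination than with glucagon.

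Of 11 textbook T3 targets other than Dio1, 4 rose with the hybrid, 5 with the combination and 4 with T3, and 0 fell in these 3 comparisons. With glucagon 4 rose and 1 fell. The median change of the list was 0.17 with the hybrid, 0.46 with the combination, 0.24 with T3 and 0.22 with glucagon. Hr, a corepressor of nuclear receptors, rose by 3.63 ± 0.51 with the hybrid, by 3.24 ± 0.51 with the combination, by 2.73 ± 0.51 with T3 and by 2.14 ± 0.50 with glucagon. Bcl3 rose by 2.33 ± 0.37 with the hybrid, by 2.36 ± 0.37 with the combination, by 2.48 ± 0.37 with T3 and by 1.84 ± 0.36 with glucagon. Cyp7a1, which makes bile acids from cholesterol, fell by 2.26 ± 0.45 with glucagon and was 4.26 ± 0.49 higher in the combination than in glucagon livers. Without glucagon 4 these Cyp7a1 changes were -3.18 and 5.17.

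The clock list, which holds Nr1d1, the neighbour of Thra, was counted in the same way. Of its 13 tested genes 2 rose and 4 fell with the hybrid, 2 and 4 with the combination, 3 and 1 with T3, and 4 and 6 with glucagon, and the median change with the hybrid was -0.18. Arntl, the activator of the clock that Nr1d1 represses, rose by 1.92 ± 0.27 with the hybrid and by 1.87 ± 0.27 with the combination. Its mean was highest in glucagon livers, at 40.5 CPM, against 28.0 CPM in hybrid, 27.1 CPM in combination, 5.02 CPM in T3 and 7.31 CPM in control livers. Cry1 rose by 2.07 ± 0.25 with the hybrid, by 2.18 ± 0.25 with the combination, by 0.94 ± 0.25 with T3 and by 2.94 ± 0.25 with glucagon. The hour of tissue collection is not given for the groups, and its part in the Nr1d1 and Thra levels was not tested.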

How the data were processed

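Liver RNA of 20 mice was measured, 4 in each of 5 groups. The labels' protocols name a Qiagen kit for RNA and a Lexogen kit for the libraries. The deposited values are raw counts per gene symbol, which the authors made with HTSeq on the mm10 build, per the submitters' processing notes. The aligner, gene annotation and use of strand were not given in the sources used here. Every listed symbol reaches at least 20 counts in some library. No other columns of per-sample values were present, and symbols were matched by name to GENCODE M21 (GRCm38) for positions and exon lengths.

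The software was edgeR 4.0.16 and limma 3.58.1 under R 4.3.3. The filterByExpr filter, at a minimum count of 10 and a minimum total of 15, kept 12907 genes and removed 412. After TMM normalisation, one quasi-likelihood model of 5 group means was fitted to all 20 libraries, with 15 residual and 5 prior degrees of freedom and a biological coefficient of variation of 27.8%. P-values were adjusted by Benjamini-Hochberg over all genes within a comparison and called under 0.05, and intervals are at 95%. Single values were tested by a two-sided exact permutation test of log2(CPM + 1).

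Alternatives were RLE size factors, library totals alone, no filter on low counts, DESeq2 1.42.0, the compared groups alone, a replicate block, the fits without the T3 libraries and without control 2 and glucagon 3, and each library left out. Replicate numbers mark the sequencing lane in 16 libraries per the labels. Over 24 pairs of same-numbered libraries, the correlation of deviations from the group means ran from -0.318 to 0.462, with a median of 0.071 and 10 over 0.1.

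The 7 genes and the pathway and marker lists were chosen with earlier results of these data known. Named genes were the 7, Nr1d1, up to 2 highest and 2 lowest called genes of a pathway list in a comparison, from which examples are given, and the 3 of highest r with each called member among genes averaging 20 CPM or more, on log2 CPM with a prior count of 2. Alb is named as a marker. One result on a corepressor list is not reported here. Each change is treated over control or first named over second named group.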

Additional observations from a re-analysis of the deposited data

Results flagged for a closer look

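In a group of 4 libraries, a library was set apart when its gap to the nearest other, divided by the range of the group, was above Dixon's 95% critical value, which chance alone passes in about 1 of 20 groups. Of the 35 sets of 4 libraries formed by 7 genes and 5 groups, 2 passed. Serpina7 in hybrid 2 was at 9.691 CPM, against 3.36 CPM in the nearest hybrid library, with a gap of 0.83 of the range. Ttr in hybrid 3 was at 3480 CPM, against 3279 CPM in the nearest hybrid library, with a gap of 0.883 of the range, and the hybrid had the tightest Ttr values of the 5 groups, with an SD of 106 CPM.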

How the results depend on the processing

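Dio1 and Serpina7 kept their calls against control (Dio1 with glucagon never called) and against glucagon in all alternatives run, as did Thrb with the hybrid and with the combination. With the compared groups alone, 3 members were called for the combination against control, 1 for the combination against T3, 1 for glucagon against control and 2 for T3 against control. It also gave 6 for combination against glucagon, adding Rxra and Ncor1, and 5 for hybrid against glucagon, adding Ncor1. For glucagon against control 1 was also called with RLE size factors, without the T3 libraries, and with the replicate block by lane in 16 libraries or by number in 20 libraries, and 1 to 2 with 1 library left out. For the hybrid against T3, leaving out 1 library gave 0 called. The replicate block ended the Thra calls of the combination and of glucagon against control and no other member's call.

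Reversals were all in changes that were not called. Ncor1 in hybrid against control was -0.0048 with RLE size factors, -0.0043 with DESeq2 and -0.077 without control 2 and glucagon 3, and ran from -0.060 to 0.11 with 1 library left out. Ncor1 with library totals alone was 0.18 for the combination and 0.15 for T3, and with 1 library left out ran from -0.092 to 0.080 for the combination, from -0.16 to 0.018 for T3, and from -0.036 to 0.077 for hybrid against combination. Thrb in glucagon against control was 0.0079 with RLE size factors, 0.0093 with DESeq2, 0.025 with the compared groups alone, 0.0016 with the replicate block in 20 libraries and 0.0066 with the replicate block by lane, and ran from -0.13 to 0.20 with 1 library left out. With 1 library left out, glucagon against control ran from -0.19 to 0.14 for Rxra and from -0.11 to 0.043 for Ttr. Thra in combination against glucagon was 0.30 with library totals alone, 0.17 without control 2 and glucagon 3 and -0.18 to 0.17 with 1 library left out, and in hybrid against glucagon 0.18 with library totals alone. Ttr in hybrid against combination was 0.045 with library totals alone and -0.20 to 0.0080 with 1 library left out.

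Scaling by library totals alone moved the median change of all genes to 0.24 in hybrid, 0.10 in combination, 0.17 in T3 and -0.24 in glucagon against control, and to 0.31 in combination and 0.44 in hybrid against glucagon. Calls of all genes were then 2768 higher of 3583 for the hybrid, where TMM gave 1440 of 3144, and 4765 higher of 5408 for hybrid against glucagon, where TMM gave 1751 of 3255. For the combination they were 1787 of 2555 against 1191 of 2598, for T3 1702 of 2229 against 944 of 2317, for glucagon 797 of 3123 against 1191 of 2732, and for combination against glucagon 3236 of 3907 against 1595 of 2906. Under that scaling Rxra was called in T3 against control and in combination and hybrid against glucagon, and Ncor1 in glucagon against control and in combination and hybrid against glucagon. With the compared groups alone the calls of all genes were 1208, 918, 503 and 976 for hybrid, combination, T3 and glucagon against control, with fewer libraries behind the spread. They were 523 for combination against T3, where the shared fit gave 179 and DESeq2 326, 1562 for hybrid against T3, where it gave 821, and 16 for hybrid against combination, where it gave 4. Of 118 calls of named pathway genes, 41 of 117 were lost with the compared groups alone, 19 with library totals, 11 of 92 with the block by lane, 9 without control 2 and glucagon 3, 34 with at least 1 library left out and 0 with DESeq2, and 0 changed direction.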
